A study of Mus musculus with 13 samples.

Results

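Interferon-stimulated genes are the genes that a cell switches on when interferon, the secreted alarm protein of antiviral defence, binds its receptor. The 9 genes described here are Isg15, Ifit1, Ifit3, Irf7, Usp18, Bst2, Rsad2, Cxcl10 and Gbp2. They were taken by symbol from the 32544 gene symbols of the count table. All 9 had a row, 6 carried enough reads to be tested across genes and 3 (Isg15, Bst2 and Cxcl10) did not. Of the 6 tested members, Gbp2 was the only one that changed: it fell 2.72-fold in hyperoxic lung, with no overlap between the groups. Ifit1, Irf7, Rsad2 and Usp18 did not pass the test with all 13 libraries or without any 1 of them, and Ifit3 passed only when a single library was left out. Of the 3 with few reads, Bst2 was lower and Cxcl10 higher by exact permutation (unadjusted p = 0.0035 and 0.0128). Neither passed in edgeR with no filter on low counts (adjusted p = 0.202 and 0.0604).

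Quant-seq, which reads a short tag from the 3′ end of each mRNA, was run on lungs of wild-type (WT) C57BL/6J male mice, which were bought at 7 weeks of age. One group breathed 21% oxygen (Normoxia, n = 7) and the other 80% oxygen (Hyperoxia, n = 6), each for 5 days. The lungs were perfused before freezing, and the labels name no altered gene and no agent other than oxygen in either group. The labels do not say that each library is a separate animal, so the p-values here measure the spread between these libraries.

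Type I interferons bind Ifnar1 and Ifnar2, and the kinases Jak1 and Tyk2 then activate a complex that contains Stat2 and Irf9 and binds a DNA sequence called the interferon-stimulated response element. Interferon gamma, the type II interferon of T and NK cells, binds Ifngr1 and Ifngr2 and acts mainly at a second sequence, the gamma-activated site. Macrophages, epithelium and endothelium of the lung all answer to both, and many target genes respond to either.

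The promoters of the members show the first of these sequences. RefSeq promoter windows of 300 bases (250 before the transcription start and 50 after it, build GRCm38.p6) were at hand for 8 of the 9 members, the exception being Usp18. The windows were searched on both strands for the core GAAANNGAAA of the interferon-stimulated response element, in which N is any base, and for the core TTCNNNGAA of the gamma-activated site. The first core was found in 7 of the 8 windows, all but that of Irf7, beside 3.44% of 32851 RefSeq promoter windows of the same length. The second was found in 1 of the 8, that of Bst2, beside 8.3% of all windows. These are matches of letters, not measured binding, and a window without a match says nothing about the factor. The matches lie before the RefSeq start in all 7, as shown in these stretches, which are given because 7 of the 9 members were found to hold this sequence. Each is written 5′ to 3′ on the gene's strand, and capitals mark the matched core or overlapping cores.
Isg15, chr4:156200865-156200906, minus strand: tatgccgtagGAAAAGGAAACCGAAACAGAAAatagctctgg
Ifit1, chr19:34640775-34640823, plus strand: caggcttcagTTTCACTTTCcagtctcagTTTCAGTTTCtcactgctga
Ifit3, chr19:34583363-34583426, plus strand: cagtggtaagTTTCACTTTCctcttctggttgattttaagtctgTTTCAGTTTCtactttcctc
Bst2, chr8:71537577-71537618, minus strand: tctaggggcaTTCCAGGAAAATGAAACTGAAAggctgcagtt
Rsad2, chr12:26456553-26456582, minus strand: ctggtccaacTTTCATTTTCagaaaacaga
Cxcl10, chr5:92349083-92349112, minus strand: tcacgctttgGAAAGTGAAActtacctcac
Gbp2, chr3:142620594-142620623, plus strand: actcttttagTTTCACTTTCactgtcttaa

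Isg15 holds 3 overlapping copies of the core. Ifit1 and Ifit3 hold 2 separate copies each, both on the opposite strand. In Bst2, 2 copies overlap each other and the first of them also overlaps the gamma-activated site core, so the capitals there run across all of them. Gbp2, the member that fell, holds 1 copy, as Rsad2 and Cxcl10 do. By the GENCODE start, which lies further upstream than that of RefSeq, this copy falls inside the gene.

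Totals ran from 1607111 to 4540288 counts per library. The library of hyperoxia replicate 1 stood apart, with correlations to the others of 0.721 to 0.833 where the other 12 libraries correlated at 0.854 to 0.967, and each member is therefore also given without it. The lung label was borne out by alveolar epithelial markers, summed to 12881 to 23855 CPM (counts scaled to a common library total, with TMM factors) in normoxia and 4106 to 7657 CPM in hyperoxia. In bulk tissue, fewer cells of a type and less RNA per cell cannot be told apart.

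Over all genes, edgeR's quasi-likelihood test at an adjusted p under 0.05 called 11.8% of the 12496 tested genes higher and 10.8% lower in hyperoxia. Against this background, 0 of the 6 tested members were higher and 1 was lower. No member was higher at an unadjusted p under 0.05 (0 of 6) in that test, and DESeq2 and limma-voom also called 0 higher. The median log2 fold change of the 6 was -0.05, beside -0.03 for all genes.

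**Figure D1:**
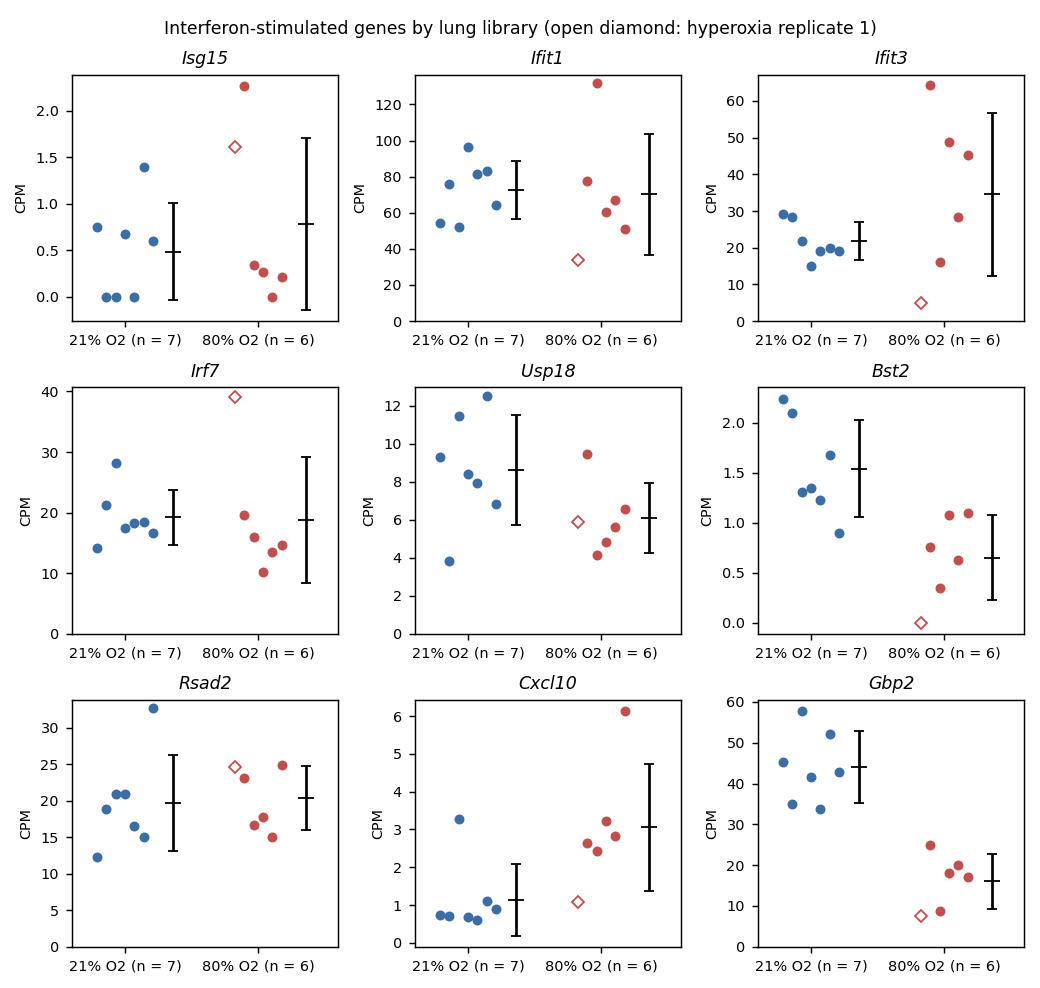
Level of each of the 9 members in CPM (vertical axis, starting at or below 0, a different scale in each panel), 1 point per lung library, at 21% and 80% oxygen. Black bars give the mean ± SD and the open diamond is hyperoxia replicate 1. The groups separate completely for Gbp2 only.

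Gbp2 encodes a guanylate-binding protein, a large GTPase of the interferon gamma response that gathers on pathogen-containing vacuoles. It lies on the plus strand at chr3:142620602-142638008 (GENCODE M21, GRCm38). None of the 31-base words in the last 600 bases of its transcripts occur in another gene's transcripts. No sequence shared with the other Gbp genes was thus found in that stretch of this annotation. In normoxia its level ran from 33.7 CPM at the lowest through a median of 42.8 CPM to 57.9 CPM at the highest. In hyperoxia it ran from 7.51 through a median of 17.5 to 24.9 CPM. Every hyperoxic library lay below every normoxic one, which holds for 5.23% of all tested genes. The 2 lowest libraries were hyperoxia replicates 1 and 3, at 7.51 and 8.69 CPM, and the other 4 lay between 17.1 and 24.9 CPM.

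The means of Gbp2 were 44.1 ± 8.71 CPM (SD, n = 7) and 16.0 ± 6.74 CPM (n = 6). The log2 fold change was -1.45 (SE 0.25, 95% interval -1.98 to -0.91, edgeR adjusted p = 0.00072). Without hyperoxia replicate 1 it was -1.30 (adjusted p = 0.000295). The names of the libraries fall into 2 sets of letters, B to M (5 normoxic and 3 hyperoxic libraries) and O to S (2 and 3). The difference of Gbp2 in log2 CPM was -1.77 within the first set and -1.33 within the second, so it was of one direction in both.

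**Figure D2:**
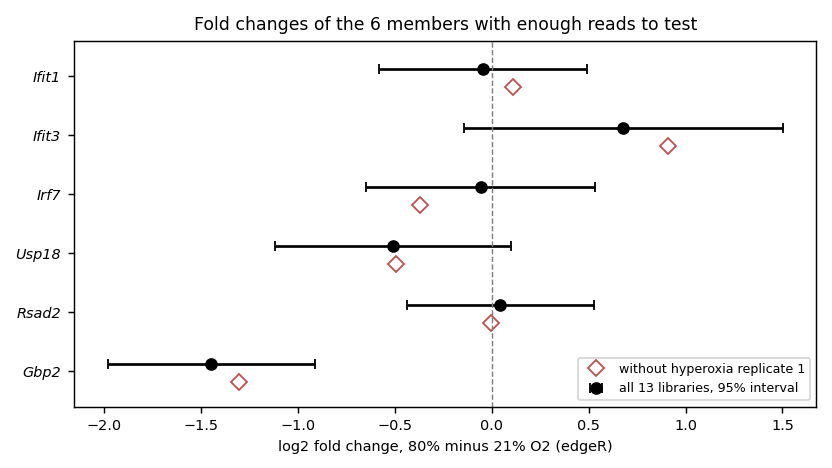
Log2 fold change (hyperoxia minus normoxia, horizontal axis) of the 6 tested members, with 95% intervals from edgeR for all 13 libraries (black) and the value without hyperoxia replicate 1 (open diamond). Only the interval of Gbp2, -1.98 to -0.91, lies clear of 0.

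Ifit1 and Ifit3 encode tetratricopeptide-repeat proteins. Ifit1 binds foreign RNA at its 5′ end and blocks its translation, and Ifit3 forms complexes with its relatives. Both lie on the plus strand of chromosome 19, Ifit3 at chr19:34583531-34588731 and Ifit1 at chr19:34640871-34650009. Ifit1 ran from 52.3 through 75.8 to 96.5 CPM in normoxia (lowest, median, highest) and from 33.8 through 63.7 to 132 CPM in hyperoxia. The hyperoxic libraries lay both below and above the whole normoxic range, with replicate 1 at the bottom and replicate 3 at the top. Between the groups Ifit1 differed by a log2 fold change of -0.05 (SE 0.25, 95% interval -0.58 to 0.49, edgeR adjusted p = 0.922), and 0.11 without hyperoxia replicate 1.

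Ifit3 spread more widely among hyperoxic than among normoxic lungs. It ran from 15.1 through 19.8 to 29.1 CPM in normoxia. In hyperoxia it ran from 4.83 through 36.9 to 64.2 CPM. Replicates 2, 4 and 6 of hyperoxia, at 64.2, 48.7 and 45.3 CPM, were above every normoxic library, replicates 3 and 5 lay within the normoxic range at 16.0 and 28.4 CPM, and replicate 1 lay below it.

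The log2 fold change of Ifit3 was 0.68 (SE 0.39, 95% interval -0.14 to 1.501, edgeR adjusted p = 0.232). Without hyperoxia replicate 1 it was 0.91 with an adjusted p of 0.0168, and without hyperoxia replicate 2 it was 0.43 with an adjusted p of 0.449. Within the sets of library letters the difference in log2 CPM was -0.33 in B to M and 1.01 in O to S, so the direction differed between them. The B to M set holds hyperoxia replicate 1.

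Part of the Ifit3 reads could belong to its neighbour Ifit3b, since 30.9% of the 31-base words at the end of Ifit3 also occur there. Ifit3b had 9.02 CPM in normoxia and 10.1 CPM in hyperoxia on average, with a log2 fold change of 0.13 (edgeR adjusted p = 0.785). With the reads of both summed, which was added after the values had been seen, the log2 fold change was 0.56 (SE 0.26, edgeR adjusted p = 0.139). Ifit1 shared 5.32% of its words with other genes.

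Irf7 is the transcription factor that amplifies the type I interferon response once it has been induced. It lies on the minus strand at chr7:141262706-141266481, and 1.2% of its 31-base words also occur in Phrf1 on the other strand. In normoxia it ran from 14.2 through 18.4 to 28.1 CPM. In hyperoxia it ran from 10.2 through 15.3 to 39.1 CPM. The highest value of all 13 libraries was hyperoxia replicate 1, and the other 5 hyperoxic libraries lay between 10.2 and 19.6 CPM. Irf7 thus had a log2 fold change of -0.06 (SE 0.28, 95% interval -0.65 to 0.53, edgeR adjusted p = 0.914) with all libraries. It was -0.37 (edgeR adjusted p = 0.2) without hyperoxia replicate 1.

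Usp18 removes Isg15 from proteins and dampens signalling at Ifnar2. It lies on the plus strand at chr6:121245906-121270917. It ran from 3.84 through 8.41 to 12.5 CPM in normoxia and from 4.17 through 5.76 to 9.45 CPM in hyperoxia, on 11 to 45 reads per library. The hyperoxic range lay inside the normoxic one, since normoxia replicate 2 had the lowest value of all. The log2 fold change was -0.51 (SE 0.29, 95% interval -1.12 to 0.10, edgeR adjusted p = 0.227), and it was negative in every setting tried, from -0.65 to -0.38 with 1 library left out and -0.49 without hyperoxia replicate 1.

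Rsad2 encodes viperin, which makes a chain-terminating nucleotide that stalls viral polymerases. It lies on the minus strand at chr12:26442746-26456452. It ran from 12.3 through 18.9 to 32.7 CPM in normoxia and from 15.0 through 20.4 to 24.9 CPM in hyperoxia. The hyperoxic libraries all lay within the normoxic range. Its log2 fold change was 0.04 (SE 0.23, 95% interval -0.44 to 0.53, edgeR adjusted p = 0.915), and -0.0011 without hyperoxia replicate 1.

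Isg15, Bst2 and Cxcl10 were close to the limit of detection. A count of 3 corresponded to 0.656 to 1.84 CPM, depending on the library, and this floor covers counting error only. Isg15, the ubiquitin-like protein that is attached to target proteins in the interferon response, had 11 reads in all normoxic libraries together and 12 in all hyperoxic ones. Per library it had 0 to 5 reads in normoxia and 0 to 6 in hyperoxia. The difference in mean log2 CPM was 0.24 (exact two-sided permutation test, p = 0.57), and 0.07 without hyperoxia replicate 1 (p = 0.9), so no difference was detectable at this depth. Within letter sets the direction of Isg15 turned, with 1.09 in B to M and -0.97 in O to S. The gene lies on the minus strand at chr4:156199424-156200818, and 16.3% of its 31-base words also occur in other genes.

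Bst2, or tetherin, holds budding virus at the cell surface, and lies on the minus strand at chr8:71534255-71537456. It had 31 reads in normoxia, 2 to 6 per library, and 14 reads in hyperoxia, 0 to 5 per library. On the CPM scale normoxia ran from 0.892 through 1.35 to 2.24 and hyperoxia from 0 through 0.690 to 1.09. The groups overlapped: hyperoxia replicates 4 and 6, at 1.08 and 1.09 CPM, lay above normoxia replicate 7. The difference in mean log2 CPM was -0.79 (exact two-sided permutation test over 1716 splits, p = 0.0035, smallest possible 0.000583). Without hyperoxia replicate 1, the library with no Bst2 read, it was -0.61 (exact permutation p = 0.00884), the smallest difference with any 1 library left out. In edgeR with no filter on low counts, adjusted over all genes, the log2 fold change was -1.07 with an adjusted p of 0.202. Within letter sets the difference of Bst2 was -1.20 in B to M and -0.27 in O to S.

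Cxcl10 encodes the chemokine that draws in T cells bearing Cxcr3, and lies on the minus strand at chr5:92346638-92348889. It had 24 reads in normoxia, 1 to 10 per library, and 65 in hyperoxia, 2 to 28 per library. Its CPM ran from 0.613 through 0.747 to 3.27 in normoxia and from 1.07 through 2.73 to 6.12 in hyperoxia. In normoxia, 10 of the 24 reads were in replicate 3, and in hyperoxia 28 of the 65 were in replicate 6. The groups overlapped at both of these ends, with normoxia replicate 3 above 5 of the 6 hyperoxic libraries and hyperoxia replicate 1 below normoxia replicate 6.

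The difference of Cxcl10 in mean log2 CPM was 1.04 (exact two-sided permutation test, p = 0.0128), and 0.84 to 1.25 with 1 library left out (p from 0.00433 to 0.0366). Without hyperoxia replicate 1 it was 1.24 (exact permutation p = 0.00884). With no filter, edgeR gave a log2 fold change of 1.43 and an adjusted p of 0.0604. Within letter sets the difference was 0.65 in B to M and 1.44 in O to S. The gene shares 14% of its 31-base words with Art3 on the other strand, which had a log2 fold change of -0.11 (edgeR adjusted p = 0.784).

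Among the other tested members, the difference in log2 CPM within the letter sets B to M and O to S was 0.0005 and -0.30 for Ifit1, 0.25 and -0.45 for Irf7, and 0.26 and -0.23 for Rsad2, so its direction differed between the sets for these 3. Usp18 had -0.30 and -0.66, of one direction. The members did not move as 1 block from lung to lung. After each group's mean was subtracted, the correlation of log2 CPM between pairs of the 6 tested members over 13 libraries ran from -0.64 for Ifit3 with Irf7 to 0.79 for Ifit3 with Gbp2. Among hyperoxic libraries, replicate 2 was the highest for 3 of the 6 members (Ifit3, Usp18 and Gbp2). Replicate 1 was the lowest for 3 (Ifit1, Ifit3 and Gbp2) and the highest for Irf7. These correlations share libraries and depth and are given as a description.

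**Figure D3:**
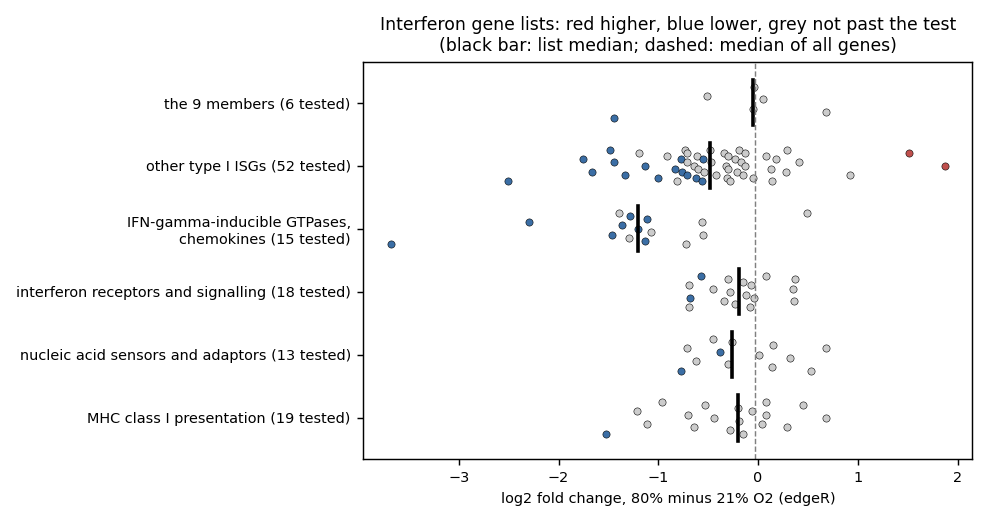
Log2 fold change (hyperoxia minus normoxia, horizontal axis) of each tested gene in the members and 5 lists of interferon pathway genes. Blue and red points passed edgeR's test as lower and higher, grey points did not, black bars are list medians and the dashed line is the median of all genes. The list with Gbp2's relatives has the lowest median, -1.20.

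Outside the members, 117 genes of the interferon pathway were tested, and 28 of them were lower and 2 higher. Their median log2 fold change was -0.43, beside -0.03 over all genes, and 90 of the 117 values were below 0. Over all tested genes, 10.8% were lower and 11.8% higher. These lists follow textbook membership of the pathway and were drawn up with earlier results of these data known.

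The genes most like Gbp2 in kind are the interferon gamma-inducible GTPases and chemokines. Of 15 tested, 8 were lower and 0 higher, beside 10.8% and 11.8% over all tested genes, with a median of -1.20. Gbp3 (-1.46), Gbp9 (-1.37), Gbp6 (-1.29), Gbp7 (-1.20) and Gbp4 (-1.11) all passed the test, with edgeR adjusted p from 0.000854 for Gbp7 to 0.00693 for Gbp6. Gbp6 shares 87.5% of its 31-base words with other genes, mostly Gbp10, whereas Gbp7 shares none. Gbp5 had a log2 fold change of -1.39 (SE 0.55, adjusted p = 0.083). Iigp1, an immunity-related GTPase, had the only value above 0 on the list, 0.49 (SE 0.23, adjusted p = 0.148).

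**Figure D4:**
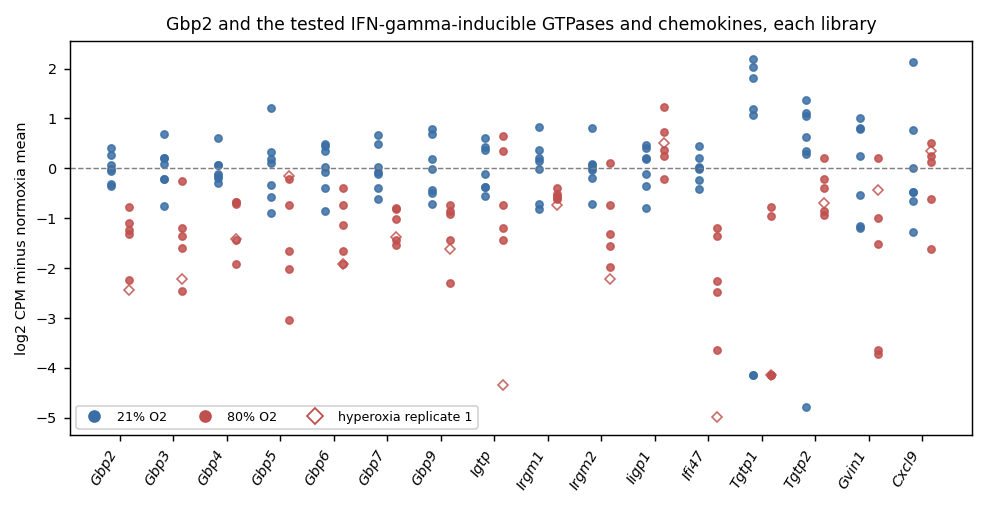
Gbp2 and the 15 tested interferon gamma-inducible GTPases and chemokines, log2 CPM of each library minus the normoxia mean of that gene (vertical axis), with normoxia in blue and hyperoxia in red. The hyperoxic points lie below the normoxic ones without overlap for Gbp2, Gbp4, Gbp7, Gbp9 and Ifi47, and Tgtp1 and Tgtp2 each have normoxic libraries near the bottom.

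Tgtp1, Irgm2 and Ifi47 of the same list are immunity-related GTPases and were also lower. Ifi47 went from 20.8 ± 4.23 CPM to 4.00 ± 3.43 CPM (log2 fold change -2.30, SE 0.45, edgeR adjusted p = 0.0018), with no overlap. Tgtp1 had the largest fall among all the pathway genes that passed, -3.68 (SE 1.04, adjusted p = 0.0182), but its groups overlapped, and it shares 81.2% of its words with Tgtp2. It did not pass in DESeq2 (adjusted p = 0.111) or limma-voom (adjusted p = 0.209). With the reads of Tgtp1 and Tgtp2 summed, likewise added afterwards, the range was 41.2 to 97.8 CPM in normoxia and 14.8 to 31.7 CPM in hyperoxia. The log2 fold change of the sum was -1.66 (SE 0.25, edgeR adjusted p = 0.000203).

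Of 52 other type I interferon-stimulated genes tested, 15 were lower and 2 higher, beside 10.8% and 11.8% over all tested genes. Their median was -0.48. Ms4a4c, a membrane protein of myeloid and lymphoid cells, fell furthest, from 14.7 ± 4.07 to 2.55 ± 1.02 CPM (log2 fold change -2.50, SE 0.31, edgeR adjusted p = 3.98e-05). Uba7, the enzyme that activates Isg15 for attachment, went from 14.3 ± 3.34 to 4.02 ± 3.20 CPM (-1.76, SE 0.45, adjusted p = 0.00988). Neither gene's groups overlapped. Phf11b, a PHD-finger protein, had a log2 fold change of -1.66 (SE 0.37, edgeR adjusted p = 0.00399). It had 1 to 14 reads per library in hyperoxia, and it shares 52.5% of its words with other genes, mostly Phf11c. With the reads of Phf11b and Phf11c summed, likewise added afterwards, the log2 fold change was -1.33 (SE 0.34, edgeR adjusted p = 0.00947). Ms4a4c shares 20.9% of its words with other genes and Uba7 29.5%, so part of their reads may be shared too.

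Both genes that rose encode DNA-binding proteins with a HIN domain. The other 2 tested genes of that kind on the lists did not pass: Ifi204 had a log2 fold change of -0.48 (edgeR adjusted p = 0.0916) and Aim2 of -0.26 (edgeR adjusted p = 0.534). Mnda rose from 14.7 ± 4.08 to 42.4 ± 11.1 CPM (log2 fold change 1.52, SE 0.22, edgeR adjusted p = 0.000189). Its 31-base words were not compared with those of other genes, so whether its reads are shared was not tested. Ifi205 rose from a mean of 6.95 CPM (2.45 to 11.3) to 26.1 CPM (16.6 to 42.4), by 1.87 on the log2 scale (SE 0.31, edgeR adjusted p = 0.000425), and 92.5% of its 31-base words occur in other genes, so its reads may be shared. In both, every hyperoxic library lay above every normoxic one, as it did for 5.6% of all tested genes.

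Upstream of the members stand the interferons and their receptors. Of 21 interferon ligand genes listed, 19 had no read in any library and none could be tested; Ifng had 5 reads in normoxia and 4 in hyperoxia.

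The receptor chains had log2 fold changes of -0.28 for Ifnar1, -0.23 for Ifnar2, -0.04 for Ifngr1 and -0.08 for Ifngr2, with edgeR adjusted p from 0.405 to 0.899. The kinase Jak1 had -0.07 (SE 0.13) and Tyk2 -0.70 (SE 0.39). Stat2 had -0.34 and Irf9 -0.15, and Irf1, a transcription factor induced by interferon gamma, had -0.69 (SE 0.34, edgeR adjusted p = 0.159). None of these 9 passed the test.

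The list of nucleic acid sensors, adaptors and related enzymes, most of which act before interferon is made, had 13 tested genes, of which 2 were lower and 0 higher, with a median of -0.26. The 2 were Adar, which edits double-stranded RNA (-0.78), and Samhd1, which depletes nucleotides (-0.38). Of 19 genes of MHC class I presentation, Psmb9, an immunoproteasome subunit, was lower and no other passed. Over all tested genes 10.8% were lower, and neither of these 2 counts is read as a result about its list. Psmb9 went from 41.5 ± 10.2 to 14.1 ± 9.26 CPM (log2 fold change -1.53, SE 0.38, edgeR adjusted p = 0.00934), with no overlap between the groups.

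**Figure D5:**
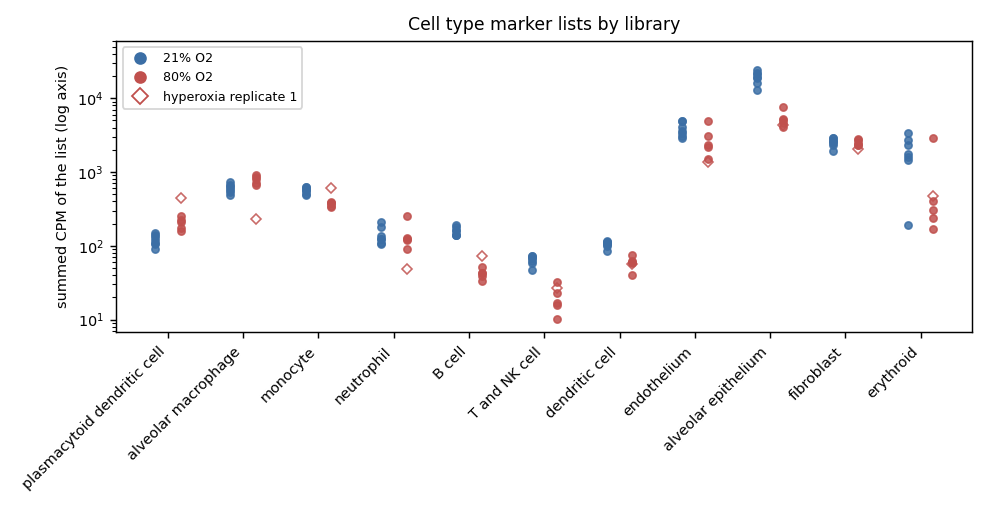
Summed CPM of 11 lists of cell type markers in each library (vertical log axis), normoxia in blue, hyperoxia in red and hyperoxia replicate 1 as an open diamond. The B cell, T and NK cell, dendritic cell and alveolar epithelium sums lie lower in every hyperoxic library than in any normoxic one. The plasmacytoid dendritic cell sum, most of it Cox6a2 in hyperoxia, lies higher.

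Several lists of cell type markers had lower sums in hyperoxia, as Gbp2 had a lower level. Whether they followed Gbp2 from library to library was not tested. The counts of genes for each list stand beside 10.8% lower and 11.8% higher over all tested genes. The B cell list summed to 139 to 192 CPM in normoxia and 33.7 to 71.8 CPM in hyperoxia, and all 5 tested genes were lower. The T and NK cell list summed to 46.8 to 72.3 and 10.1 to 32.9 CPM, with 3 of 4 tested genes lower, and the dendritic cell list to 86.5 to 115 and 40.3 to 74.1 CPM, with 4 of 6 lower. None of these 3 sums overlapped between the groups, as was also the case for Gbp2. The alveolar epithelium sums given above did not overlap either, with 5 of 8 tested genes lower. The monocyte list summed to 493 to 631 CPM in normoxia and 331 to 615 CPM in hyperoxia, with 4 of 8 lower. Hyperoxia replicate 1 set the upper end there, and the other 5 hyperoxic libraries, at 331 to 392 CPM, lay below every normoxic one.

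The plasmacytoid dendritic cell list summed to 89.8 to 151 CPM in normoxia and 159 to 451 CPM in hyperoxia, and this rise came from 1 gene. Cox6a2, a subunit of cytochrome c oxidase that muscle also makes, rose from a mean of 58.7 to 214 CPM (log2 fold change 1.87, SE 0.27, edgeR adjusted p = 0.000178). The other 6 genes of the list all had lower means in hyperoxia, and Siglech, Ccr9 and Ly6d passed the test as lower (-1.08, -1.30 and -1.82). Without Cox6a2 the list summed to 50.5 to 81.8 CPM in normoxia and 15.6 to 44.5 CPM in hyperoxia. Hyperoxia replicate 1, the library with the highest Irf7, had 407 CPM of Cox6a2 and 44.5 CPM of the rest, each the highest of its group. The sum of the whole list in the other 5 hyperoxic libraries was 159 to 252 CPM. Alveolar macrophage markers summed to 482 to 734 and 231 to 904 CPM, with 1 higher and 4 lower of 9, and neutrophil markers to 105 to 208 and 48.3 to 250 CPM, with 0 of 5 changed. The lower end of both hyperoxic ranges was hyperoxia replicate 1. Without it they ran from 674 to 904 CPM for alveolar macrophages and from 90.6 to 250 CPM for neutrophils. Endothelial markers summed to 2864 to 4977 and 1369 to 4905 CPM, with 2 of 7 lower. Fibroblast markers summed to 1954 to 2898 and 2034 to 2787 CPM, with 1 higher and 1 lower of 5, and erythroid markers to 194 to 3400 and 169 to 2863 CPM, with 1 of 4 lower. Hyperoxia replicate 2 alone set the upper erythroid end, and the other 5 hyperoxic libraries reached at most 479 CPM. No listed marker was at 0 in all libraries. The part of these cell types in the levels of Gbp2, Irf7 or the other members was not tested.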

How the data were processed

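Per the labels and the study's methods, the authors pseudoaligned Quant-seq reads with kallisto (build mm10) and deposited whole-number counts per gene symbol. They also deposited log10 values of CPM plus 1. Rescaled to log2, these matched values recomputed from the counts to within 1.8e-15 and were used in 1 alternative. All columns were mapped to the 13 labelled samples. Counts were tested with edgeR 4.0.16 in R 4.3.3 (filterByExpr, TMM scaling, glmQLFit and glmQLFTest, Benjamini-Hochberg adjustment over 12496 genes, threshold 0.05), with standard errors derived from the F statistic. Log2 CPM used a prior count of 2. Members under the filter were tested by an exact permutation of log2 CPM, unadjusted. On simulated counts for 12527 genes in this comparison, edgeR recovered 61% of 2-fold and 100% of 4-fold changes with 3.59% false calls. The simulation gave all genes the same spread, placed the changes in genes of middle level and held no library that stood apart. The rates therefore do not cover genes with few reads or a library such as hyperoxia replicate 1. Same-group libraries differed by more than sampling noise (chi-square per gene at least 3.79 in 36 pairs). A word is shared when an identical 31-base word, on either strand, occurs in a GENCODE M21 transcript of another gene. Whether the counting used strand, and its annotation, is not given in the sources used here.

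The members and lists were chosen with earlier results of these data known. Genes named are the members, the receptor and kinase genes, Stat2, Irf9, Irf1 and Ifng, the pathway genes past the test that rose most (up to 6, of which 2 existed) or fell most (6), and the 5 genes most correlated with the mean of Isg15, Ifit1, Ifit3, Irf7, Usp18 and Rsad2. The other Gbp genes, Iigp1, Ifi204, Aim2, Irgm2, Adar, Samhd1, the markers and the near copies were named after their values were seen. Alternatives were DESeq2 1.42.0, limma 3.58.1 (voom, and on the deposited log values), library size alone, other filters, a replicate block, a term for the letter set, leaving out each library, and near copies summed. No protein sequence was used here, and some results on signalling genes are not reported here.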

Additional observations from a re-analysis of the deposited data

Results flagged for a closer look

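Of 58 groups of values examined for a single library far from the rest (Dixon's ratio of the gap to the range), 8 exceeded the 95% critical value, where chance flags about 1 in 20, or 2.9. Among the members, Irf7 was flagged in hyperoxia, where replicate 1 had 39.1 CPM and the next library 19.6 CPM (ratio 0.674). Rsad2 was flagged in normoxia for replicate 7, at 32.7 CPM with the next at 20.9 CPM (0.578). Cxcl10 was flagged in normoxia for replicate 3, at 3.27 CPM with the next at 1.11 CPM (0.811), which is 10 reads beside 4. Among pathway genes, all in normoxia, Tyk2 was high in replicate 4 (0.620), Ifng in replicate 7 (0.633) and Psmb9 in replicate 3 (0.631), and Phf11b was low in replicate 4 (0.596). The total count of normoxia replicate 5, 1607111, was below the next, 2696280 (0.612). Hyperoxia replicate 1 accounted for 1 of the 8.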

How the results depend on the processing

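Gbp2 was lower and past the threshold in all 21 alternatives, from -1.58 to -1.30 with 1 library left out and from -1.56 to -1.42 otherwise. The number of tested members called higher was 0 and became 1 only without hyperoxia replicate 1 (0 to 1 over the libraries left out), where Ifit3 was called. Of 175 alternative values of single members, 172 kept their side of the threshold, 1 gained it (Ifit3) and 2 lost it: Bst2 and Cxcl10 in edgeR with no filter, which is a different test adjusted over all genes. With the replicate number as a block, 10 pathway genes were lower against 28 without it. Same-numbered libraries deviated from their group means with correlations of -0.325 to 0.272, so the numbers do not pair the libraries, and the replicate block left Gbp2 at -1.53 (adjusted p = 0.022). The count of lower pathway genes was 20 to 35 with 1 library left out and 22 to 31 in the remaining alternatives. The count of higher ones was 2 throughout. Tgtp1 lost its call in 4 alternatives (DESeq2, limma-voom, the deposited log values and the replicate block). Uba7, Psmb9 and Phf11b lost theirs under the replicate block only (adjusted p = 0.0636, 0.0634 and 0.056). The median of all genes shifted from -0.03 to -0.16 on the deposited log values and to -0.10 with library size alone. Depth limits Isg15, Bst2 and Cxcl10, at 23, 45 and 89 reads over all libraries.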

Other observations

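The 5 genes outside every list whose log2 CPM, after subtraction of each group's mean, correlated most with the mean of Isg15, Ifit1, Ifit3, Irf7, Usp18 and Rsad2 over 13 libraries were Terf2ip (r = 0.84), Lgi1 (0.77), Rmdn2 (0.77), Mrps9 (0.75) and Gm21970 (0.74), out of 9955 candidates. Isg15 entered this mean with 23 reads in all, and Gbp2, Bst2 and Cxcl10 were not part of it. Spearman's rho was 0.52, 0.50, 0.82, 0.81 and 0.44 in the same order. Without the 2 libraries farthest from the median, r was 0.37, 0.25, 0.54, 0.70 and 0.28 in that order, so the likeness of Terf2ip, Lgi1 and Gm21970 rested on those 2 libraries. They were picked as the highest of many and are given as a description. Gm21970 overlaps Ifnar2 on the same strand, and 16.8% of Ifnar2's 31-base words occur in it.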
